A study of Mus musculus with 30 samples.

Results

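The dependence of the hepatic response to CDDO-Me on NRF2 was measured as a difference between responses. CDDO-Me is bardoxolone methyl, an oleanane triterpenoid that activates NRF2. The change from vehicle to CDDO-Me in Nrf2-knockout livers was subtracted, gene by gene, from the same change in wild-type livers. All RNA-seq libraries of these genotypes were used, which were 20 of the 30 libraries of the series, with 5 in each of 4 groups: wild-type with vehicle, wild-type with CDDO-Me, knockout with vehicle and knockout with CDDO-Me. The other 10 libraries came from C151S mice, whose KEAP1 carries serine in place of the cysteine that senses this compound, and served here only as a separate readout. Every mouse was a male of the albino C57BL/6J strain B6(Cg)-Tyr c-2J/J, aged 7 to 10 weeks, and each knockout was homozygous for the disrupted Nrf2 allele (labelled N0) in every cell of the body. A single oral dose of 30 µmol/kg CDDO-Me, or the vehicle alone (DMSO, Cremophor-EL and PBS), was given 24 hours before the liver was taken.

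NRF2 (gene Nfe2l2) is a basic leucine zipper transcription factor that the adaptor KEAP1 holds in the cytoplasm and hands to the proteasome. Electrophiles that modify KEAP1 cysteines stop this degradation, and NRF2 then enters the nucleus, pairs with a small MAF protein and binds antioxidant response elements near its target genes. In liver these targets are known for conjugating and exporting foreign compounds, for supplying glutathione and NADPH, and for handling heme and iron.

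The libraries held 23667068 to 42073169 reads counted to genes, and mitochondrial transcripts took 3.74% to 6.22% of them. There were 6 libraries, 3 of the vehicle-treated and 3 of the CDDO-Me-treated knockouts, that had low Arntl, a core clock gene whose mRNA cycles over the day; the highest of them reached 0.90 on the log2 scale of CPM (reads scaled to the library total, TMM-adjusted) and the lowest of all others 3.27. Results that rest on knockout libraries were therefore also computed within each Arntl side. The 10 hepatocyte markers, albumin among them, summed to a median of 130900 CPM (119800 to 146300) with vehicle and 109300 CPM (104300 to 127300) with CDDO-Me in wild-type liver, and of 156800 CPM (139100 to 158500) and 131600 CPM (104700 to 143900) in knockouts. The sums were thus lower after CDDO-Me in both genotypes, with overlapping ranges, and 1 marker fell as a DEG in each, Ass1 in wild-type mice (-0.71 log2, edgeR FDR = 0.0488) and Ttr in knockouts (-0.67 log2, edgeR FDR = 0.0481). Their part in the results was not tested. Of 65 tested marker genes of 9 cell types, 0 had a called difference between responses, beside 0.307% of all genes. An unadjusted p below 0.05 was found for 4 of the 65, beside 7.15% of all genes. In bulk liver, fewer cells of one type and less RNA per cell cannot be told apart.

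The targeted gene was read first. Nfe2l2 itself lies on the minus strand at chr2:75675513-75704641 (mm10), and its counts add reads from every exon that the disrupted allele still transcribes. Its CPM in wild-type liver were 69.6, 64.3, 66.7, 70.4 and 60.2 with vehicle and 52.7, 48.1, 59.5, 57.0 and 49.5 with CDDO-Me. In knockout liver the values were 31.1, 37.3, 40.8, 39.8 and 29.7 with vehicle and 22.5, 23.1, 27.9, 28.9 and 30.1 with CDDO-Me. Every knockout library lay below every wild-type library. Since exons that remain are counted too, this lower level is not a check of a homozygous disruption. After CDDO-Me its log2 fold change was -0.31 in wild-type mice and -0.43 in knockouts, and neither passed the test, with adjusted p-values of edgeR's quasi-likelihood F-test (edgeR FDR, used throughout) of 0.175 and 0.106. The difference between the responses was 0.12 (95% interval -0.18 to 0.42). For Keap1 this difference was 0.25 (-0.07 to 0.57).

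In wild-type liver CDDO-Me raised some enzymes of carbonyl and quinone reduction, glutathione conjugation, thioredoxin recycling and glucuronidation, and 1 of heme breakdown, Blvrb. None of these enzymes passed the test for a response in knockout liver, which 13 of 14651 genes (0.0887%) passed. These enzymes were taken from the genes called below, and the same libraries made those calls. The difference between responses was called for 45 of 14651 genes (0.307%) at a false discovery rate (FDR) below 0.05 in edgeR's quasi-likelihood F-test with Benjamini-Hochberg adjustment. For 40 genes (0.273% of those tested) the wild-type response was the higher one, and for 5 (0.0341%) it was the lower one. The median difference of the 40 was 1.17 on the log2 scale, with a range of 0.58 to 5.33, beside a median of -0.00 over all genes tested. Their median wild-type response was 1.19 and their median knockout response -0.00, with a range of -0.88 to 0.37 in knockouts. At an unadjusted p below 0.05, 1048 genes differed (7.15%), 605 toward the wild-type side (4.13%) and 443 toward the knockout side (3.02%).

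For 32 of the 40 the wild-type response was more than 3 times the size of the knockout response. The 40 were chosen by the difference between these responses, so this count describes them and is not a further test. In the wild-type response alone, 38 of the 40 were DEGs, which here means FDR below 0.05 and a log2 fold change of 0.5 or more in size. That rule was met by 1.19% of genes in either direction and by 0.853% upward, and the same libraries chose the 40. The other 2 were Snhg17 and Swap70, with wild-type responses of 0.49 and 0.27. In 39 of the 40 the lowest CDDO-Me library lay above the highest vehicle library in wild-type mice, as it did for 3.11% of all genes, while 0 of the 40 and 2.23% of all genes showed the opposite order. In the knockout response 0 of the 40 were DEGs, beside 13 of all genes tested (0.0887%, with 0.0478% rising and 0.041% falling) and 1797 (12.3%) at an unadjusted p below 0.05. The knockout estimate lay above 0 for 19 of the 40, beside 48.5% of all genes. Of the 40, 3 had an unadjusted p below 0.05 upward in knockouts (6.2% of all genes), namely Txnrd1 (0.26 log2), Entpd5 (0.26) and Ugt2b35 (0.31), and 5 had one downward (6.06%), namely Gm34934 (-0.54), Swap70 (-0.35), Ces1g (-0.81), Akr1b8 (-0.62) and Cd300lb (-0.88). In knockouts 2 of the 40, Gm34934 and Swap70, had groups without overlap downward (0.785% of all genes). All 45 differences kept their direction in the 20 fits that each left out 1 library, and 28 of the 45 stayed below FDR 0.05 in every such fit. Without vehicle-treated wild-type replicate 3 there were 29 called genes, with DESeq2 120, and with only the knockouts of the high Arntl side 18. That side alone, with 2 libraries in each knockout group, lost 31 of the 45 calls, and the low side, with 3, lost 19. Lost on the high side but called on the low side were, among others, Cbr3 (edgeR FDR = 0.0790), Cbr1 (0.0961), Nqo1 (0.0913), Ugdh (0.0874) and Txnrd1 (0.0874). The same held for Slc48a1 (edgeR FDR = 0.220 on the high side), Gstm2-ps1 (0.127) and Entpd5 (0.170). Ugt2b35 was called on the high side only (edgeR FDR = 0.0518 on the low side). Abcc4 (edgeR FDR = 0.301 and 0.0977) and Gclm (0.290 and 0.0860) were called on neither the high nor the low side.

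**Figure D1:**
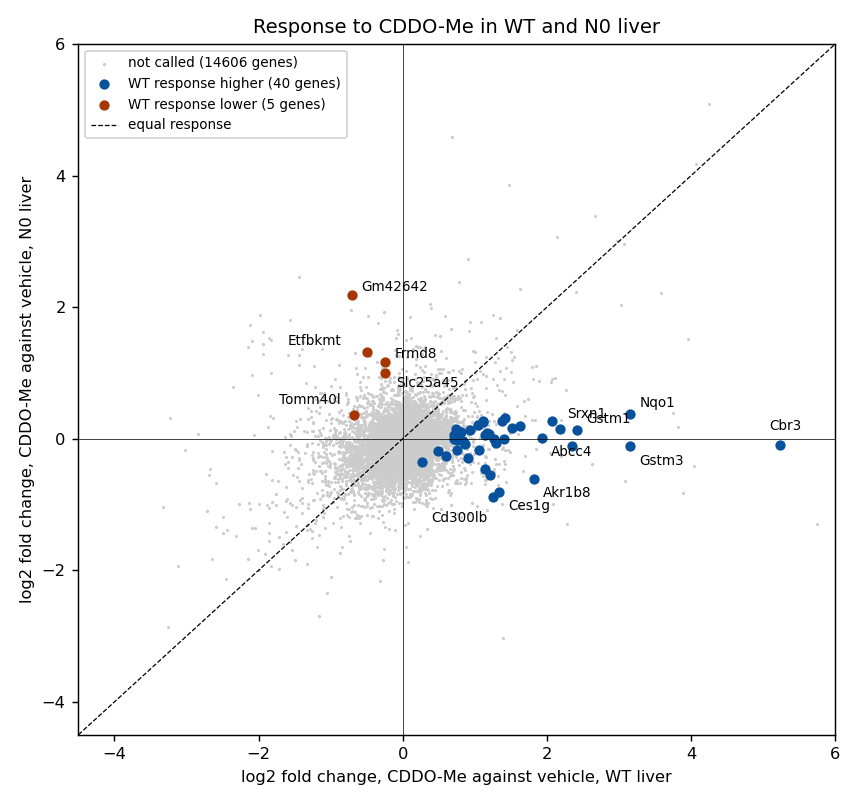
Each point is a gene, placed by its log2 fold change after CDDO-Me in wild-type (WT, horizontal) and Nrf2-knockout (N0, vertical) liver, with 5 mice a group; the dashed line marks equal responses. The 40 genes with a higher wild-type response (blue) spread from 0.27 to 5.24 along the horizontal axis while staying between -0.88 and 0.37 on the vertical one, and the 5 with a lower wild-type response (brown) sit left of 0 and above 0.

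The antioxidant response element has the core letters TGACNNNGC, and these were searched on both strands of the RefSeq promoter windows (GRCm38.p6, the assembly behind mm10), each running from 250 bases before to 50 bases after a transcript start. Windows were found for 38 of the 40 genes, and 11 of them (28.9%) held at least 1 match. The share was 16.7% of the 10841 tested genes with a window, and 12.4% of all 32851 windows. Of the 11, 3 (Ugdh, Abcc4 and Htatip2) held 2 matches, which shared 1 window in Ugdh and lay beside different starts in Abcc4 and Htatip2. A gene can have more than 1 window, so shares by gene and by window are not alike. A match is a description of letters, not a bound site, and a window without one says nothing of elements that lie farther off. Gclm, which makes the modifier subunit of the enzyme that starts glutathione synthesis, is shown with the 250 bases before its start, at chr3:122245307-122245556 on the plus strand. The 1 match there lies on the opposite strand and is set in capitals:
Gclm: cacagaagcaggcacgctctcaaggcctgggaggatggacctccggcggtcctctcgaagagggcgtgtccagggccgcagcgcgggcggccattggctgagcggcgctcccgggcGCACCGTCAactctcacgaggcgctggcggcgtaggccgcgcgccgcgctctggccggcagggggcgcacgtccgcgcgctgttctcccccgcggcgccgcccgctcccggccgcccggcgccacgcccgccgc

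Short stretches around the match are shown for 5 more of the genes described further on, because they let the letters inside the core be compared. Each is turned so that the core, in capitals, reads TGAC first. The Srxn1 stretch lies just after the gene's start, at chr2:152105542-152105570, minus strand. Ugdh holds one at chr5:65435956-65435984, minus strand, and another at chr5:65435918-65435946, plus strand. The Txnrd1 stretch lies before an internal RefSeq start, at chr10:82859104-82859132, minus strand. For Abcc4 the one nearest to the start of the whole gene is given, at chr14:118706226-118706254, plus strand, and for Slc35d1 the one at chr4:103215259-103215287, minus strand. Abcc4 and Slc35d1 shared the same letters between the fixed parts, and the others differed.
Srxn1: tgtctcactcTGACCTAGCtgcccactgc
Ugdh, first: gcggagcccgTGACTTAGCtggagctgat
Ugdh, second: ccgaactgtaTGACCACGCcccttgagga
Txnrd1: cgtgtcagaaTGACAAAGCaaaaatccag
Abcc4: cggcccgcccTGACCCCGCctctcggggc
Slc35d1: ggcccttcccTGACCCCGCgaggcaccat

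Enzymes that reduce carbonyls and quinones or open epoxides held the largest of the called differences. Of 18 tested members of this list, 5 had a higher wild-type response and 0 a lower one. The 1 member that leaned to the knockout side at an unadjusted p below 0.05 was Akr1b7, a relative of Akr1b8, at -3.90 with a wide interval of -6.88 to -0.93 (edgeR FDR = 0.494). Cbr3, a carbonyl reductase at chr16:93683215-93690990 on the plus strand, showed 0.488, 0.931, 0.660, 0.468 and 0.282 CPM with vehicle and 14.2, 16.3, 22.1, 20.7 and 34.9 with CDDO-Me in wild-type liver. Its knockout values were 0.426, 0.315, 0.490, 0.378 and 0.136 with vehicle and 0.346, 0.335, 0.314, 0.245 and 0.426 with CDDO-Me. The wild-type groups did not overlap, the knockout groups did, and all 10 knockout libraries lay within or near the range of vehicle-treated wild-type mice. Cbr3 rose 37.8-fold in wild-type mice, and the difference between responses was 5.33 ± 0.47 (S.E., edgeR FDR = 4.68e-06).

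The neighbouring carbonyl reductase gene Cbr1 starts upstream of Cbr3 on the same strand, with 72709 bases between them. Wild-type livers held 67.0, 102, 62.6, 84.3 and 64.0 CPM of Cbr1 with vehicle and 293, 252, 266, 344 and 449.6 with CDDO-Me. Knockout livers held 74.9, 79.6, 72.9, 69.8 and 54.3 and 88.6, 88.2, 88.8, 81.8 and 77.5. The vehicle groups of both genotypes shared one range, and only the CDDO-Me-treated wild-type mice left it, by 4.22-fold. The difference was 1.80 ± 0.22 (edgeR FDR = 0.000184), with a knockout response of 0.27 (-0.05 to 0.59).

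Nqo1 encodes NAD(P)H quinone dehydrogenase, the enzyme most used as a readout of NRF2. Its wild-type CPM were 9.32, 9.24, 4.54, 8.26 and 4.72 with vehicle and 55.1, 48.6, 52.5, 56.6 and 108 with CDDO-Me. Its knockout CPM were 1.31, 1.69, 2.78, 2.17 and 2.001 with vehicle and 2.29, 3.38, 2.95, 1.89 and 2.31 with CDDO-Me. Treated knockout livers stayed below every vehicle-treated wild-type liver, and 1 treated wild-type library was far above the other 4. The knockout response was 0.37 with a 95% interval of -0.20 to 0.95.

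Akr1b8, an aldo-keto reductase that clears reactive aldehydes, had estimates of opposite sign in the 2 genotypes. In wild-type mice its CPM went from 2.35, 1.79, 1.74, 1.71 and 1.69 to 5.71, 4.72, 6.80, 7.93 and 7.49. In knockouts they went from 1.79, 2.27, 3.18, 2.61 and 2.92 to 1.38, 1.10, 1.76, 2.20 and 1.92. The wild-type groups were separate and the knockout groups overlapped. The knockout response was -0.62 (edgeR FDR = 0.223), so the difference of 2.43 ± 0.28 exceeded the wild-type response of 1.82. For Ephx1, the microsomal epoxide hydrolase, the difference was 1.13 ± 0.20 (edgeR FDR = 0.0114) and the vehicle-treated wild-type mean was 3.15 times the knockout one. It was called on neither Arntl side alone (edgeR FDR = 0.0558 and 0.0706).

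Glutathione S-transferases of the mu class lie in a cluster on chromosome 3, where 3 of the 40 genes lie on the minus strand in this order: Gstm3 (chr3:107963696-107969283), Gstm1 (chr3:108012255-108017973) and Gstm4 (chr3:108040408-108044894). These enzymes couple glutathione to electrophiles. Of 22 tested transferases, 3 had a higher wild-type response at FDR below 0.05 and 0 a lower one. An unadjusted p below 0.05 was reached by 10 on the wild-type side (4.13% of all genes) and 1 on the other (3.02%). Mu-class sequences are alike, and the deposited counts keep only reads with a single mapping position, so part of each gene's reads may be missing.

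Gstm1 CPM in wild-type liver were 2182, 2717, 1672, 1864 and 1626 with vehicle and 10124, 8939.7, 10686, 10568 and 13406 with CDDO-Me. In knockout liver they were 287, 252, 341, 390.2 and 360.3 and 319.8, 279.6, 486, 358 and 348. The 4 groups formed 3 levels, treated wild-type above vehicle wild-type above all knockouts, and the knockout groups overlapped. The difference was 2.28 ± 0.24 (edgeR FDR = 2.83e-05).

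Gstm3 rose 8.93-fold in wild-type mice, from 166, 271, 92.8, 126 and 95.4 CPM to 1300.2, 878, 1149, 1058 and 2314. Knockout CPM were 26.9, 21.2, 73.3, 44.2 and 20.6 with vehicle and 25.5, 18.3, 71.8, 26.9 and 29.1 with CDDO-Me. Replicate 3 of each knockout group stood above the others, and the ranges of the groups overlapped. The difference of 3.28 ± 0.59 (edgeR FDR = 0.0105) carried a wide 95% interval of 2.05 to 4.50 and passed on neither Arntl side alone (edgeR FDR = 0.0558 and 0.0705).

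Gstm4 had tighter groups: 111, 98.9, 95.3, 97.6 and 84.3 CPM with vehicle and 319, 286, 274, 286 and 333 with CDDO-Me in wild-type liver, against 30.5, 25.6, 26.3, 32.3 and 28.8 and 39.0, 22.6, 41.7, 32.5 and 28.4 in knockouts. Its difference was 1.42 ± 0.18 (edgeR FDR = 0.000347). Gstm2-ps1, a processed pseudogene on chromosome 5, rose from a mean of 1.23 ± 0.425 to 6.19 ± 0.591 CPM (S.D., n = 5) in wild-type mice, and its difference was 2.46. A processed copy can take reads of its parent gene, so its count is uncertain.

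**Figure D2:**
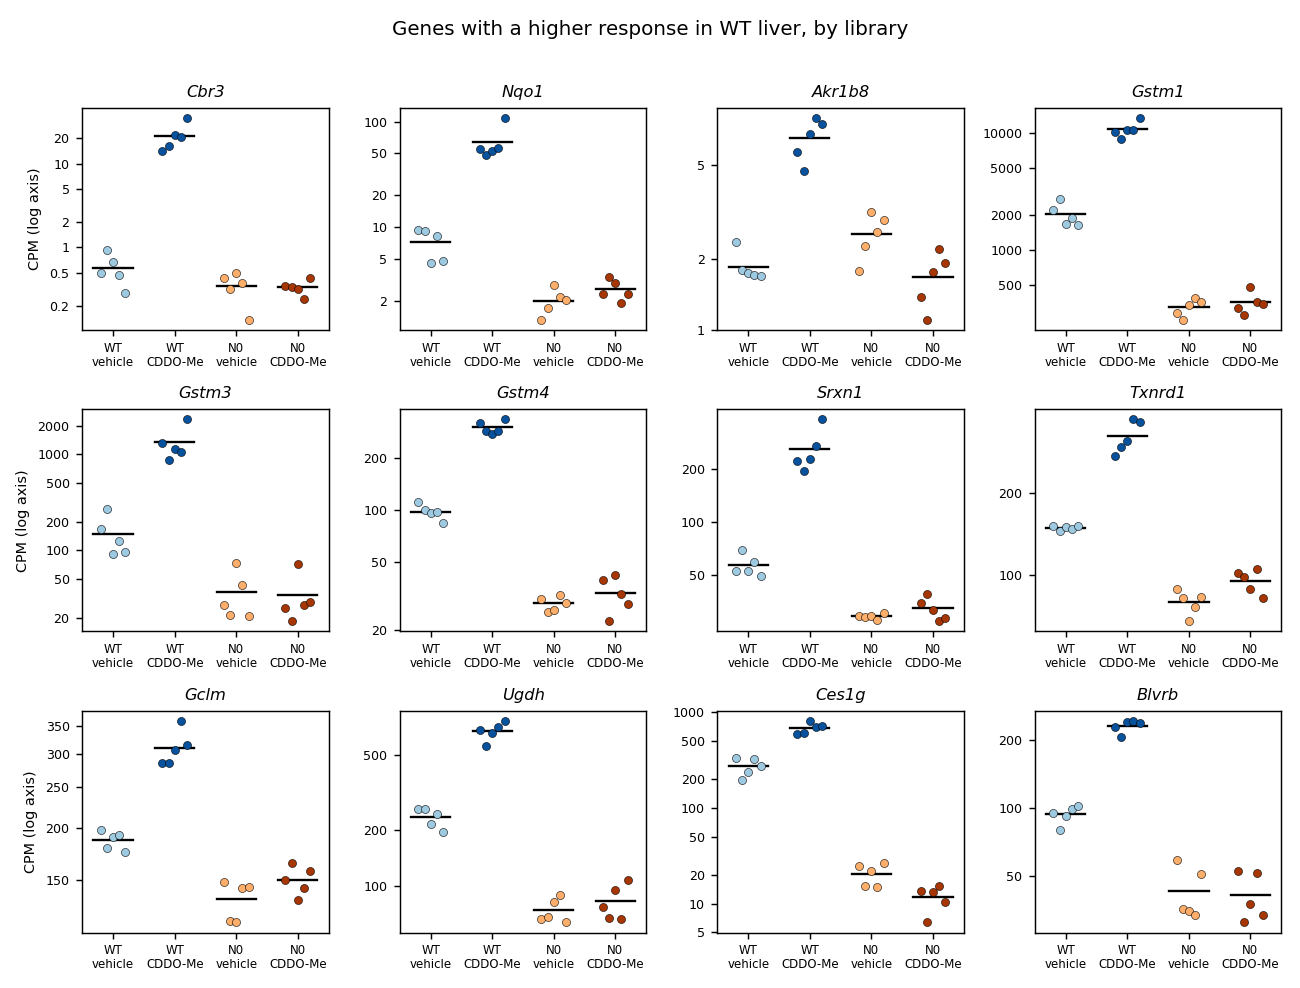
CPM on log axes for 12 of the 40 genes, with 1 point for each of the 5 libraries in a group and a bar at the group mean. In all 12 panels the treated wild-type libraries lie above the other 3 groups, and the treated knockout libraries overlap with the vehicle-treated ones.

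Srxn1 encodes sulfiredoxin, which restores overoxidised peroxiredoxins. Wild-type CPM were 52.8, 69.1, 53.0, 59.4 and 49.4 with vehicle and 222, 194, 227, 269.7 and 379.5 with CDDO-Me. Knockout CPM were 29.4, 29.1, 29.4, 27.8 and 30.6 with vehicle and 34.7, 39.1, 31.9, 27.4 and 28.7 with CDDO-Me. The lowest treated wild-type library was still far above the highest vehicle library, while the knockout groups overlapped. The difference was 2.04 ± 0.21 (edgeR FDR = 1.75e-05).

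Txnrd1, the cytosolic thioredoxin reductase, had vehicle levels of 150.98, 145, 149.6, 148 and 151.29 CPM in wild-type mice and reached 274, 295, 309, 372 and 363 with CDDO-Me. In knockouts it went from 89.2, 82.2, 67.9, 76.4 and 83.5 to 102, 98.6, 89.2, 105 and 82.5. The knockout groups overlapped, although their response of 0.26 (95% interval 0.06 to 0.45) lay above 0 before adjustment (edgeR FDR = 0.278). The difference of 0.86 ± 0.13 (edgeR FDR = 0.00304) came with a wild-type response of 1.11. Of 21 tested thioredoxin and peroxide enzymes, Srxn1 and Txnrd1 were the 2 called.

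Gpx2, the gastrointestinal glutathione peroxidase of the same list, was barely counted outside treated wild-type livers. Those held 25, 14, 24, 19 and 45 reads. Vehicle-treated wild-type livers held 1, 3, 2, 1 and 1 reads, vehicle-treated knockouts 0, 0, 1, 3 and 0 and treated knockouts 0, 2, 0, 0 and 0. At a floor of 3 reads a library the 3 low groups were all at or under the limit of counting, so the wild-type rise was at least 6.34-fold and the knockout change cannot be given. The difference did not pass the adjusted test (edgeR FDR = 0.273).

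Glutathione synthesis depends on glutamate-cysteine ligase, made of the modifier subunit Gclm and the catalytic subunit Gclc. Gclm went from 198, 179, 190.2, 191 and 175 CPM to 286, 286, 307, 361 and 315 in wild-type liver. Its knockout values were 148, 119.6, 118, 143 and 144 and 149.7, 164, 134, 143 and 158. Wild-type groups were separate and knockout groups overlapped, for a difference of 0.58 ± 0.12 (edgeR FDR = 0.0454), the smallest among the 40. Its FDR stayed below 0.05 in only 3 of 20 fits that each left out 1 library.

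Gclc fell just outside the threshold with a larger difference, 1.53 ± 0.33 (edgeR FDR = 0.0545). It rose 2.59-fold in wild-type mice, from 391 ± 33.3 to 1013 ± 291 CPM, and stood at 165 ± 72.2 and 148 ± 33.3 CPM in vehicle- and CDDO-Me-treated knockouts (mean ± S.D., n = 5). The other genes at the edge were Htatip2 (difference 1.11, edgeR FDR = 0.0470) and Fnbp1 (0.87, edgeR FDR = 0.0454) inside it, and Aox1 (0.92, edgeR FDR = 0.0515) and Srgap2 (0.81, edgeR FDR = 0.0544) outside it.

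NADPH, the reductant that these enzymes consume, is regenerated by the pentose phosphate pathway. Of 12 tested genes of NADPH supply, 2 had a called difference. Pgd, 6-phosphogluconate dehydrogenase, went from 50.7, 57.3, 51.2, 56.8 and 46.6 CPM to 128, 113, 111, 103 and 137 in wild-type mice, and from 37.8, 38.6, 38.2, 44.5 and 45.1 to 44.4, 29.0, 57.8, 39.4 and 46.1 in knockouts. Treated wild-type libraries lay far above all 15 others, which overlapped. Its difference was 1.09 ± 0.18 (edgeR FDR = 0.00699). Tkt, transketolase, had a difference of 0.93 ± 0.19 (edgeR FDR = 0.0411), which stayed below FDR 0.05 in 5 of the 20 fits without 1 library. G6pdx, the entry enzyme of the pathway, had a difference of 1.43 ± 0.37 that did not pass (edgeR FDR = 0.148).

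Glucuronidation attaches glucuronic acid to drugs, bilirubin and steroids. Of 17 tested genes of this list, 3 had a higher wild-type response and 0 a lower one. Ugdh, UDP-glucose dehydrogenase (chr5:65413221-65435949, minus strand), with 2 core matches before its RefSeq start, went from 258, 257, 216, 242 and 196 CPM to 680.0, 556, 655, 702 and 761 in wild-type liver. Knockout livers held 67.0, 69.0, 83.1, 89.9 and 64.2 with vehicle and 78.1, 67.6, 95.1, 66.8 and 108 with CDDO-Me. All 10 knockout libraries lay below all 10 wild-type libraries. The difference was 1.37 ± 0.19 (edgeR FDR = 0.00113).

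The transferases Ugt2b35 and Ugt2b5 lie on opposite strands of chromosome 5 with 111684 bases between them. Ugt2b35 rose from 311 ± 40.5 to 829 ± 81.9 CPM in wild-type liver and measured 51.4 ± 8.75 and 63.6 ± 13.0 CPM in knockouts (mean ± S.D., n = 5), for a difference of 1.11. For Ugt2b5 the difference was 0.94 (edgeR FDR = 0.0282), called in 10 of 20 fits without 1 library. Close relatives in this family can share reads.

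Among 16 tested ABC transporters 1 was called. Abcc4, which exports conjugates across the basolateral membrane of hepatocytes, went from 5.41, 6.38, 3.54, 3.34 and 3.70 CPM to 9.78, 14.0, 14.5, 19.1 and 27.9 in wild-type liver and from 1.92, 1.72, 3.29, 3.10 and 2.88 to 1.86, 2.13, 2.71, 2.45 and 3.83 in knockouts. Treated wild-type values were widely spread, all above the vehicle group, and the knockout groups overlapped. The difference was 1.93 ± 0.39 (edgeR FDR = 0.0305) and was called in 8 of 20 fits without 1 library. The related exporters Abcc2 (0.75, edgeR FDR = 0.175) and Abcc3 (1.01, edgeR FDR = 0.219) did not pass.

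Ces1g, a carboxylesterase that hydrolyses lipid and drug esters, was the 1 called gene among 15 tested carboxylesterases. At an unadjusted p below 0.05, 3 leaned to the wild-type side (4.13% of all genes) and 3 to the knockout side (3.02%). Ces1g had the largest vehicle difference of the 40, 3.73 log2. Wild-type CPM were 334, 196, 238, 328 and 272 with vehicle and 590.2, 609, 819, 703 and 723 with CDDO-Me. Knockout CPM were 24.8, 15.1, 21.7, 14.9 and 26.7 with vehicle and 13.6, 6.34, 13.2, 15.4 and 10.3 with CDDO-Me. The vehicle-treated wild-type mean was 13.3 times the knockout one, and both treated wild-type and treated knockout means lay farther out. The wild-type response was 1.33 and the knockout response -0.81 (edgeR FDR = 0.144), for a difference of 2.14 ± 0.30 (edgeR FDR = 0.00104). Paralogs of this gene lie beside it, so its counts carry the same doubt as those of the mu-class transferases.

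Heme and iron handling gave 2 called genes of 19 tested. Blvrb, biliverdin reductase B, went from 95.2, 79.7, 92.3, 99.4 and 102 CPM to 226, 206, 239, 242 and 235 in wild-type liver, and from 59.1, 36.1, 35.4, 33.8 and 51.4 to 52.5, 31.3, 37.8, 51.7 and 33.6 in knockouts. Wild-type groups were far apart and knockout groups overlapped, for a difference of 1.35 ± 0.23 (edgeR FDR = 0.00630). Hmox1, heme oxygenase 1, had a wild-type response of 0.18 (edgeR FDR = 0.894). Its difference of 0.67 (-0.08 to 1.41) did not pass either (edgeR FDR = 0.749). Ftl1, ferritin light chain, had a difference of 0.88 ± 0.17 (edgeR FDR = 0.0191), called in 19 of 20 fits without 1 library (edgeR FDR = 0.0522 without vehicle-treated wild-type replicate 5) but on neither the high nor the low Arntl side (edgeR FDR = 0.294 and 0.0839). Fth1, the heavy chain that shares the ferritin shell, was a wild-type DEG at 0.65 log2, but its difference of 0.37 (-0.02 to 0.76) did not pass (edgeR FDR = 0.727). Slc48a1, a heme transporter outside the list, had a difference of 1.09 ± 0.17 (edgeR FDR = 0.00304).

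The other 20 of the 40 belonged to no pathway list, although some, such as Slc35d1, Slc48a1 and Aldh3b1, have roles near those of listed genes. Gm34934, a lincRNA at chr14:46866576-46882757 on the minus strand, had the second smallest p-value. Wild-type CPM went from 7.81, 7.42, 7.26, 6.64 and 5.92 to 18.0, 14.8, 15.9, 17.1 and 15.5, and knockout CPM from 4.16, 3.05, 3.12, 2.65 and 4.24 to 2.63, 2.03, 2.46, 2.34 and 2.31. Treated and vehicle groups were separate in both genotypes, upward in wild-type mice and downward in knockouts, although the knockout response of -0.54 did not pass the adjusted test (edgeR FDR = 0.106). The difference was 1.76 ± 0.18 (edgeR FDR = 1.75e-05).

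Esd, an S-formylglutathione hydrolase, rose with little spread, from 223, 226, 211, 224 and 219.6 CPM to 381, 357, 398, 386 and 403 in wild-type liver against 199, 172, 166, 165 and 166 and 208, 170.4, 202, 180.2 and 174 in knockouts. Its difference was 0.69 ± 0.11 (edgeR FDR = 0.00304). Gbe1, the glycogen branching enzyme, rose 2.41-fold in wild-type mice and measured 0.993-fold in knockouts. Entpd5, a nucleoside diphosphatase of the endoplasmic reticulum, rose 2.17-fold and measured 1.20-fold.

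Slc35d1 carries UDP-sugars, among them UDP-glucuronic acid, into the endoplasmic reticulum, where glucuronidation takes place. Its CPM went from 135, 142, 132, 122 and 122 to 247, 265, 281, 292 and 268 in wild-type liver and from 91.1, 95.1, 81.5, 61.9 and 89.3 to 123, 95.6, 100.3, 88.4 and 76.8 in knockouts. Only the wild-type groups were separate, and the difference was 0.84 ± 0.16 (edgeR FDR = 0.0245), called in 10 of 20 fits without 1 library. Aldh3b1, an aldehyde dehydrogenase, went from 2.57, 1.97, 2.61, 2.77 and 2.29 CPM to 5.87, 5.62, 4.65, 4.16 and 5.17 in wild-type liver and from 2.21, 2.98, 3.14, 2.68 and 2.14 to 2.21, 2.99, 2.03, 2.27 and 2.22 in knockouts. Its vehicle groups overlapped between genotypes and its difference was 1.22 ± 0.21 (edgeR FDR = 0.00926), or 0.93 on the high Arntl side, where it did not pass (edgeR FDR = 0.416).

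The other 11 genes outside the lists had differences from 0.63 to 1.61. Creg1, a secreted glycoprotein of lysosomes (0.80), Ubap1, an ESCRT subunit (0.77), and Acsm1, a mitochondrial acyl-CoA synthetase (0.72), were called in all 20 fits without 1 library. None of them was called with the high-side knockouts alone (edgeR FDR = 0.0961, 0.0874 and 0.159), and Creg1 was not called with the low-side ones either (edgeR FDR = 0.0781). Acsm1 also lost its call without a filter on low counts. Cds2, a CDP-diacylglycerol synthase (0.66), the snoRNA host gene Snhg17 (0.68), D630045J12Rik (1.41) and the intronic transcript Gm31814 (1.20) were called in 7, 7, 11 and 8 of them. Htatip2, an oxidoreductase, Fnbp1, a membrane-bending F-BAR protein, and Reep1, which shapes the endoplasmic reticulum (1.61), were called in 3, 3 and 3. Swap70, an actin-binding protein (0.63), was called in 5, and its difference combined a wild-type response of 0.27 with a knockout response of -0.35.

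Cd300lb, a myeloid receptor, was the 1 gene of the 40 whose wild-type groups overlapped. Its CPM were 0.444, 0.172, 0.369, 0.374 and 0.810 and 0.704, 0.965, 0.845, 1.13 and 1.47 in vehicle- and CDDO-Me-treated wild-type liver, and 0.640, 0.774, 0.757, 0.757 and 0.475 and 0.319, 0.287, 0.411, 0.280 and 0.548 in knockouts. The knockout response was -0.88 log2 (edgeR FDR = 0.252), and the difference of 2.13 was called in 4 of 20 fits without 1 library. The 11 Kupffer cell and macrophage markers summed to 247.5 to 365 CPM in treated wild-type and 209.6 to 469 CPM in treated knockout livers, beside 184 to 435 and 273 to 609 CPM in the vehicle groups, and 0 of them had a called difference. Their part in the Cd300lb result was not tested.

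Most of the 40 genes also differed between the vehicle groups. In vehicle-treated mice 23 of them were higher in wild-type liver (FDR below 0.05 and at least 0.5 log2), where 4.04% of all genes were, and 1, Reep1, was lower (-0.96 log2), where 6.76% were. The median of this vehicle difference was 0.75 over the 40 genes and -0.01 over all genes. In 37 of the 40 the treated knockout mean lay under the vehicle-treated wild-type mean, as it did for 47.1% of all genes. The vehicle comparison shares its libraries with the difference between responses, and a high vehicle level in wild-type mice lowers that difference. Cbr3 and Cbr1 had vehicle differences of 0.67 (-0.05 to 1.39) and 0.11 (-0.21 to 0.44), both with intervals that include 0.

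The C151S libraries were not part of the contrast and gave a separate reading of the same genes. All 40 were tested there, and 0 were DEGs after CDDO-Me (0.092% of the 14128 genes tested in C151S were). At an unadjusted p below 0.05 there was 1, Gm34934, at -0.50 log2, beside 13.7% of all genes. The median C151S response was -0.02, with a range of -0.61 to 0.40, and 16 of the 40 lay above 0, beside 49.1% of all genes. For Nqo1 it was 0.07 (95% interval -0.20 to 0.34), for Gstm1 -0.02 (-0.54 to 0.51) and for Cbr3 0.40 (-0.16 to 0.96). Of the 5 genes with a lower wild-type response, 4 were tested in C151S mice, with 0 DEGs and a median of 0.20; Tomm40l had 0.29 at an unadjusted p of 0.0400 (edgeR FDR = 0.355).

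**Figure D3:**
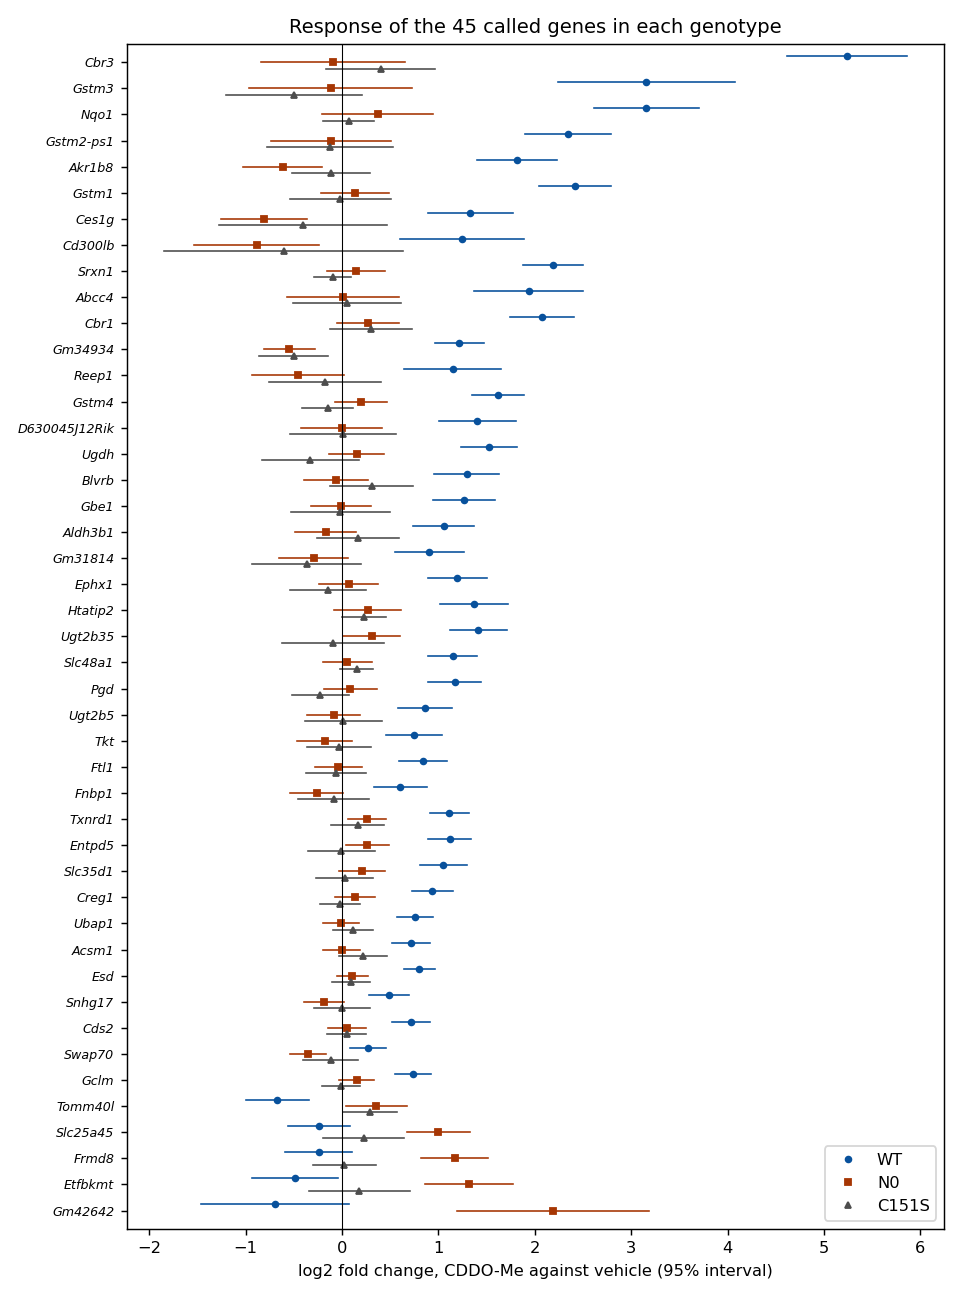
Log2 fold change after CDDO-Me with its 95% interval for the 45 called genes in wild-type (circles), Nrf2-knockout (squares) and C151S (triangles) liver, 5 mice a group, ordered by the difference between wild-type and knockout. For the upper 40 genes the wild-type interval stands clear to the right of the knockout one, and the same libraries chose these genes. Their C151S estimates lie between -0.61 and 0.40, and Gm42642 was not tested in C151S.

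For 5 genes the wild-type response was the lower one. Their median knockout response was 1.17 and their median wild-type response -0.49. In 4 of the 5 the knockout groups did not overlap, CDDO-Me above vehicle, as in 0.983% of all genes. Of the 5, 3 (Frmd8, Etfbkmt and Slc25a45) were DEGs in knockouts, where 0.0887% of all genes were. Tomm40l was 1 in wild-type mice, where 1.19% of all genes were. The same libraries chose the 5, so these counts describe the genes and are not a further test.

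Frmd8 encodes a FERM domain protein that serves the iRhom shedding complex, and Slc25a45 a mitochondrial carrier. They sit head to head on chromosome 19, Frmd8 on the minus strand at 5849702 to 5875274 and Slc25a45 on the plus strand at 5877808 to 5885878, with 2533 bases between their starts. Frmd8 in knockouts went from 22.1, 19.4, 13.5, 11.8 and 17.7 CPM to 49.4, 28.1, 49.4, 34.2 and 28.9, and in wild-type mice from 13.9, 15.4, 14.8, 15.7 and 16.5 to 12.3, 13.6, 12.1, 12.8 and 13.6. The groups were separate in both genotypes, upward in knockouts and slightly downward in wild-type mice. The knockout rise was 2.25-fold and the difference -1.41 ± 0.24 (edgeR FDR = 0.00630). Within the high and the low Arntl side of the knockouts it was -1.20 (edgeR FDR = 0.0215) and -1.52 (edgeR FDR = 0.00159).

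For Slc25a45 the knockout CPM were 25.1, 13.8, 16.2, 15.5 and 22.4 with vehicle and 43.3, 29.2, 36.8, 40.4 and 36.3 with CDDO-Me. Wild-type CPM were 25.0, 27.1, 25.0, 23.4 and 28.8 and 23.8, 27.9, 21.4, 19.4 and 17.0. Only the knockout groups were separate. The difference was -1.24 ± 0.22 (edgeR FDR = 0.00985), with -1.04 on the high and -1.38 on the low Arntl side (edgeR FDR = 0.206 and 0.0187), so the call was lost on the high side.

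Etfbkmt methylates the beta subunit of electron transfer flavoprotein. In knockouts it went from 36.1, 33.0, 25.6, 26.1 and 33.2 CPM to 116, 96.7, 52.7, 57.6 and 60.9, a 2.49-fold rise into the range of wild-type liver. Wild-type CPM were 62.8, 93.9, 105, 72.2 and 114 with vehicle and 86.7, 69.1, 50.3, 53.5 and 59.7 with CDDO-Me. The wild-type groups overlapped, and the vehicle-treated knockouts lay below every other library. Its difference was -1.81 ± 0.30 (edgeR FDR = 0.00630), and -1.91 and -1.75 within the high and low Arntl sides (edgeR FDR = 0.0790 and 0.0518).

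Tomm40l, a homologue of a mitochondrial import channel, was the 1 gene of the 5 led by wild-type mice. Its wild-type CPM were 10.21, 17.5, 13.9, 10.3 and 12.5 with vehicle and 8.06, 7.82, 7.01, 7.09 and 10.5 with CDDO-Me, a 0.629-fold level. Its knockout CPM were 25.6, 21.8, 21.7, 20.9 and 26.6 and 33.2, 37.3, 26.5, 28.8 and 23.5. Both pairs of groups overlapped. The difference was -1.03 ± 0.22 (edgeR FDR = 0.0426) and was called in 5 of 20 fits without 1 library.

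Gm42642, a processed pseudogene, rested on few reads. Vehicle-treated knockouts had 3, 3, 1, 2 and 1 reads and treated ones 13, 7, 4, 9 and 14, so the rise was at least 2.62-fold against a floor of 3 reads a library. Wild-type livers had 13, 13, 20, 18 and 13 and 7, 10, 16, 4 and 10 reads. The fitted difference depends on the counts assumed below the floor, and it was called in 3 of 20 fits without 1 library.

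**Figure D4:**
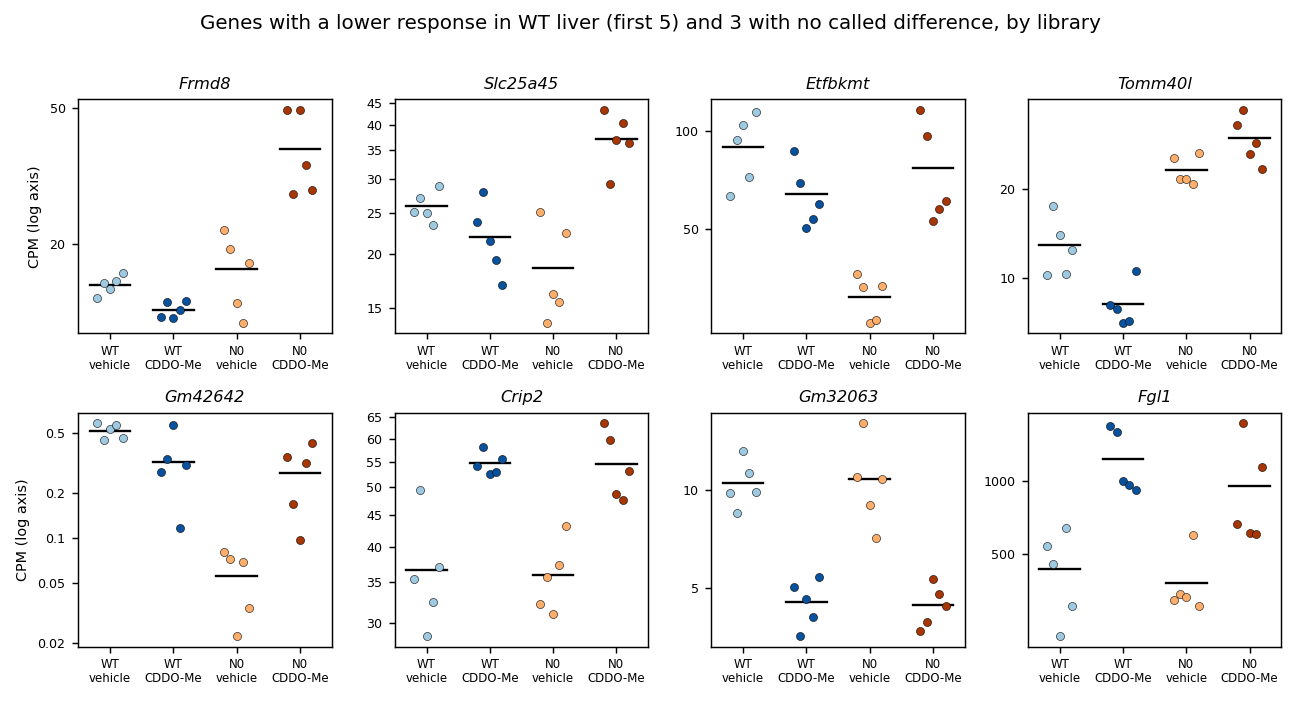
CPM on log axes, 1 point for each library and a bar at the group mean, for the 5 genes with a lower wild-type response and for Crip2, Gm32063 and Fgl1, which had no called difference. Frmd8, Slc25a45, Etfbkmt and Gm42642 rise without overlap in knockouts only, while Crip2, Gm32063 and Fgl1 shift in the same direction in both genotypes, without overlap.

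A wild-type DEG was not always a gene with a called difference. Of 125 rising wild-type DEGs 38 had one and 102 had an unadjusted p below 0.05, and of 50 falling DEGs 1 had one and 25 reached that p. The median knockout response was 0.11 for the rising and -0.34 for the falling DEGs, and the median C151S response was 0.01 and -0.51. Wild-type DEGs share the wild-type libraries with the contrast, so these counts describe the overlap of 2 calls. Wild-type DEGs with an unadjusted p above 0.05 for the difference were looked at further, which does not make their responses equal. Larger differences among them were those of Gm12498 (2.44), Mirt2 (0.67), Bbs4 (-0.51) and Myh10 (-0.41). Others had close estimates in both genotypes. Crip2, a LIM domain protein, went from 35.5, 49.6, 28.6, 32.5 and 37.1 CPM to 54.2, 58.2, 52.5, 52.9 and 55.7 in wild-type and from 32.3, 35.7, 31.1, 37.4 and 43.3 to 63.6, 59.6, 48.7, 47.6 and 53.1 in knockout liver. Both pairs of groups were separate, with edgeR FDR = 0.0174 and 0.0604, and the difference was -0.02 with a 95% interval of -0.38 to 0.34.

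Gm32063, a lincRNA, was a DEG in both genotypes. It fell from 9.76, 8.48, 13.2, 11.3 and 9.86 CPM to 5.05, 3.56, 4.61, 4.07 and 5.38 in wild-type and from 10.9, 16.0, 8.99, 7.12 and 10.8 to 3.70, 3.93, 5.34, 4.79 and 4.41 in knockout liver, again without overlap. The difference was 0.07 with an interval of -0.47 to 0.60. Fgl1, a secreted hepatokine, rose 2.82-fold in wild-type mice (edgeR FDR = 0.0180) and measured 2.50-fold in knockouts (edgeR FDR = 0.112), with a difference of 0.18 (-0.75 to 1.10). Mlxipl, the carbohydrate response factor ChREBP, had a log2 fold change of -0.67 (edgeR FDR = 0.00227) in wild-type mice and -0.42 in knockouts, with a difference of -0.25 (-0.58 to 0.09).

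By role, 20 of the 40 genes with a higher wild-type response lay in 9 of the 25 pathway lists. Of the 5 with a lower one, 0 lay in any pathway list, and the 9 marker lists held 0 called genes. The lists without a called member had medians on either side of 0. Cholesterol synthesis had 21 tested genes with a median difference of 0.69. Of them 7 had an unadjusted p below 0.05 on the wild-type side, beside 4.13% of all genes, with 0 past the adjusted test. Mvk, mevalonate kinase, had a difference of 0.87 ± 0.33 (edgeR FDR = 0.524). Genes of endoplasmic reticulum stress and ATF4 had a median of -0.32. On the knockout side 5 of 18 had an unadjusted p below 0.05, beside 3.02% of all genes. Hsp90b1, a chaperone of that compartment, had -0.67 ± 0.17 (edgeR FDR = 0.139).

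Cell division genes measured a median of -1.66 in wild-type and -1.02 in knockout liver, and growth hormone dependent genes -0.64 and -0.55. These lists had 24 and 15 tested genes. Of either list 0 members had an unadjusted p below 0.05 for the difference, beside 7.15% of all genes. Acute phase genes measured 1.00 and 0.77. In the list of drug-metabolising cytochromes P450, Cyp2a5, a coumarin hydroxylase, had a wide difference of 3.003 ± 0.86 (edgeR FDR = 0.222) and Cyp2b10, the classic CAR target, -2.34 ± 0.67 (edgeR FDR = 0.215). Cyp2b10 in knockouts went from 9.38, 2.88, 9.19, 4.57 and 1.76 CPM to 10.9, 12.5, 39.9, 25.9 and 12.7 without overlap, and in wild-type mice from 40.0, 15.9, 11.1, 20.9 and 24.7 to 27.2, 23.1, 11.6, 10.23 and 8.50 with overlap.

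**Figure D5:**
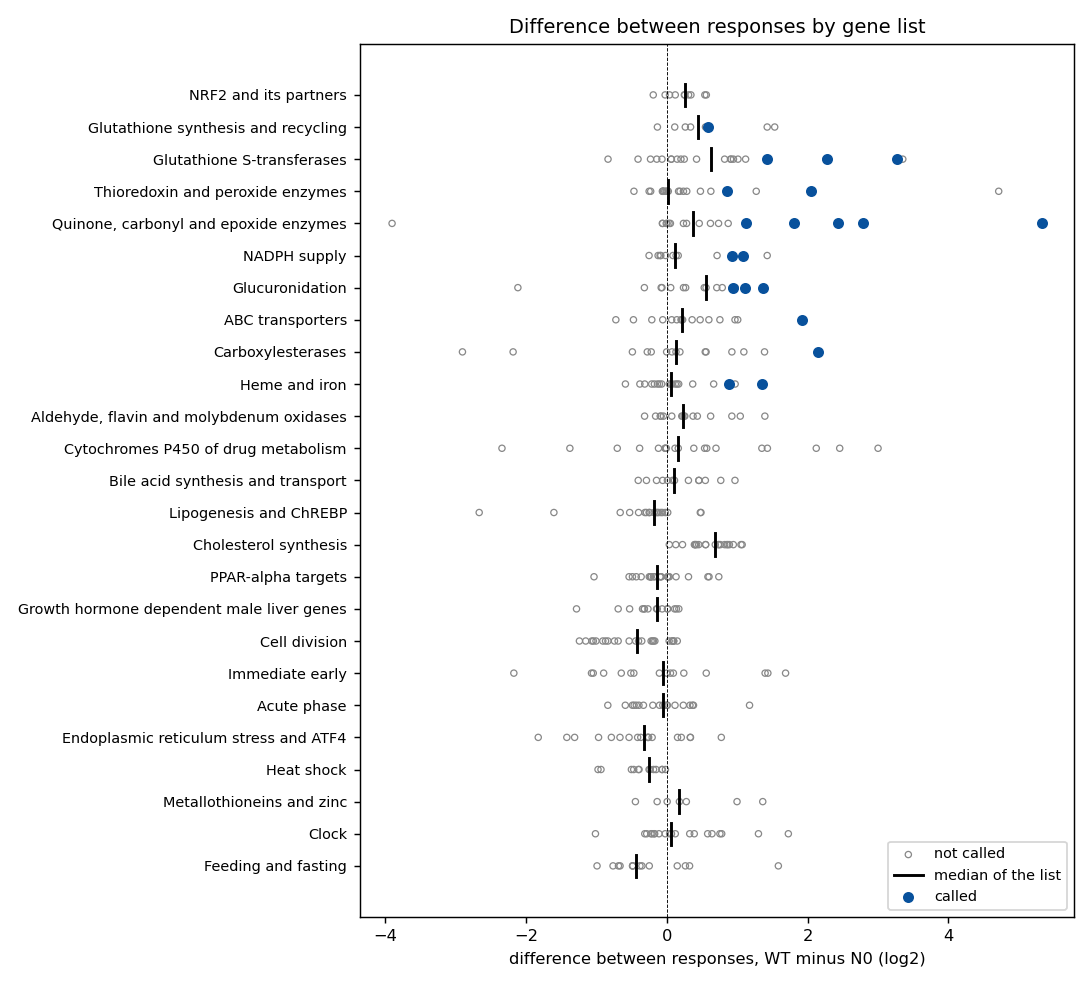
Difference between the wild-type and the Nrf2-knockout response (log2) for every tested member of 25 gene lists; filled points passed FDR below 0.05 and bars mark list medians. The filled points all lie right of 0 and in 9 lists, from glutathione synthesis to heme and iron, while cholesterol synthesis has a median of 0.69 with no filled point.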

How the data were processed

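Liver RNA-seq of wild-type, Nrf2-knockout (N0) and C151S mice was analysed from a table of raw gene counts that the authors deposited. Per the methods and the submitters' processing notes, the authors checked reads with fastp, aligned them with STAR v2.7.7 to mm10 with GENCODE M23, kept the strand-specific counts of uniquely mapped reads, and tested them with edgeR 3.36.0 using a term for RNA isolation date. Those dates are not given in the sources used here, so no such term was fitted and its part was not tested. The values are unnormalized counts. The 4 STAR summary lines were left out of library sizes, which left 65.9% to 80.6% of each library's reads on genes, while reads on no feature took 4.40% to 7.92%.

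The 20 wild-type and knockout libraries were fitted together in edgeR 4.0.16 (R 4.3.3) with filterByExpr, TMM scaling, a mean for each of 4 groups and the quasi-likelihood F-test in its legacy form. The difference was called at FDR below 0.05 with no threshold on size. Single responses were called DEGs at FDR below 0.05 and a log2 fold change of 0.5 or more in size. C151S mice were fitted from their own 10 libraries. Standard errors were taken from the F statistic, intervals are 95%, and a count of 3 was the floor. No 2 libraries held identical values. The methods give 5 livers for each group, each taken here as 1 mouse, and p-values measure the spread between these libraries. Coordinates came from GENCODE M21 on the same assembly, which matched 55154 of 55335 gene identifiers, and 1 called gene, Cd300lb, had another version there. Promoter sequences are from RefSeq (GRCm38.p6).

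Named genes were the 12 called genes with the lowest p where the wild-type response was higher and up to 8 where it was lower, genes the study's text names, the 3 lowest p-values of each list, 5 rising and 5 falling wild-type DEGs with no sign of a difference, and genes also changed in knockouts. Other called genes are named to account for all 45. The genes, lists and tests were chosen with earlier results of these data known. On simulated counts for this contrast (14502 genes), 36%, 64%, 88% and 98% of 50 genes each were recovered at log2 sizes of 0.75, 1, 2 and 4, with 5 false calls. Alternatives were DESeq2 1.42.0, upper-quartile scaling, edgeR's newer quasi-likelihood form, no filter, a minimum of 10 counts, a replicate block, 1 fit of all 30 libraries, Arntl side as a covariate, either Arntl side alone, other size thresholds and leaving out each library.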

Additional observations from a re-analysis of the deposited data

Results flagged for a closer look

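The difference between the wild-type and the knockout response passed its own test for 45 genes, 40 toward the wild-type side and 5 toward the knockout side, all on the log2 scale below. Reduction of carbonyls, quinones and epoxides held Cbr3 (5.33), Nqo1 (2.79), Akr1b8 (2.43), Cbr1 (1.80) and Ephx1 (1.13). Glutathione conjugation and synthesis held Gstm3 (3.28), the pseudogene Gstm2-ps1 (2.46), Gstm1 (2.28), Gstm4 (1.42) and Gclm (0.58). The thioredoxin and NADPH systems held Srxn1 (2.04), Pgd (1.09), Tkt (0.93) and Txnrd1 (0.86). Glucuronidation and export held Abcc4 (1.93), Ugdh (1.37), Ugt2b35 (1.11), Ugt2b5 (0.94) and Slc35d1 (0.84).

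Ester, aldehyde and acyl metabolism held Ces1g (2.14), Aldh3b1 (1.22), Acsm1 (0.72) and Esd (0.69), and heme and iron held Blvrb (1.35), Slc48a1 (1.09) and Ftl1 (0.88). Other coding genes were Cd300lb (2.13), Reep1 (1.61), D630045J12Rik (1.41), Gbe1 (1.28), Htatip2 (1.11), Fnbp1 (0.87), Entpd5 (0.85), Creg1 (0.80), Ubap1 (0.77), Cds2 (0.66) and Swap70 (0.63). Transcripts without a known protein were Gm34934 (1.76), Gm31814 (1.20) and Snhg17 (0.68). Toward the knockout side were Gm42642 (-2.89), Etfbkmt (-1.81), Frmd8 (-1.41), Slc25a45 (-1.24) and Tomm40l (-1.03).

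Dixon's criterion was applied to 45 genes that are not the 45 called ones and include uncalled genes such as Gpx2 and Gclc. In 12 of 180 groups of 5 libraries the highest or lowest library stood apart by this criterion, which chance meets in about 1 group in 20. In treated wild-type mice this was replicate 5 for Nqo1, at 108 CPM. In vehicle-treated wild-type mice it was replicate 1 for Akr1b8 (2.35 CPM), Gclc (449 CPM) and Ugt2b5 (1040.1 CPM) and replicate 5 for Mlxipl (487 CPM). In vehicle-treated knockouts it was replicate 4 for Gpx2 (0.103 CPM) and Fgl1 (598 CPM) and replicate 1 for Esd (199 CPM). In treated knockouts it was replicate 3 for Gstm3 (71.8 CPM), replicate 2 for Gpx2 (0.0479 CPM), replicate 5 for G6pdx (6.78 CPM) and replicate 4 for Cyp2a5 (213 CPM). The Gpx2 values come from libraries at or under the floor of 3 reads.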

How the results depend on the processing

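All 45 differences kept their direction under every alternative run, 28 were called in all 20 fits without 1 library, and 10 were also called under all other alternatives. The count of 45 became 120 with DESeq2 (96 higher and 24 lower, all 45 among them), 62 with Arntl side as a covariate, 46 and 47 with edgeR's newer form and upper-quartile scaling, 42 without a filter, 40 in 1 fit of all 30 libraries, 39 and 18 with only low-side or high-side knockouts, 38 with at least 10 counts in every library, and 27 with the replicate block. The replicate numbers were not taken as pairs, since not every pair's correlation was over 0.1: same-numbered libraries correlated at -0.09 to 0.15 in wild-type mice and -0.04 to 0.50 in knockouts, with 1 of 5 and 3 of 5 pairs over 0.1, and 1 and 2 of 5 correlated best with their own number. The block shared 25 of the 45 calls and gave 24 higher and 3 lower genes. Of the 20 calls it lost, 5 (Ephx1, Gbe1, Aldh3b1, Creg1 and Acsm1) had held in every fit without 1 library.

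Of the other counts, wild-type DEGs (175) became 285 with DESeq2 and 321 with low-side knockouts only. Knockout DEGs (13) became 100 with DESeq2, 23 with the replicate block, 21 with the Arntl covariate, and 7 and 1 with the high or the low side only. C151S DEGs (13) became 100 with DESeq2, 7 with upper-quartile scaling, 23 without a filter, 1 with at least 10 counts and 2 with the replicate block. Vehicle DEGs (1582) became 2535 without a size threshold. Upper-quartile scaling split them into 447 higher and 1367 lower in wild-type mice, against 592 and 990. No replicate-block value of this vehicle comparison was computed, because the blocks lie within genotypes.

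Leaving out 1 library gave 29 to 51 called differences, the fewest without vehicle-treated wild-type replicate 3, and 95 to 254 wild-type, 4 to 37 knockout and 0 to 22 C151S DEGs. The C151S count by edgeR was 0 in 7 of 10 such fits (without vehicle replicate 1, 2, 3 or 5 or CDDO-Me replicate 3, 4 or 5), where 1066 to 2307 genes had an unadjusted p below 0.05. The cause of these changes was not tested. The simulated contrast, at these depths and 5 libraries a group, recovered 36% of genes at a log2 size of 0.75.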

Other observations

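The knockout response on its own held 13 DEGs, of which 10 had no called difference. Of these 10, 7 had an unadjusted p below 0.05 for the difference, beside 7.15% of all genes. A wild-type response of the same sign was found for 9 of the 10. The same knockout libraries enter both tests, so these counts only describe the genes. Those named here were picked after their values were seen. Apoa4, an apolipoprotein of fat transport, had 93.9, 152, 133, 122 and 70.4 CPM in vehicle-treated and 301, 1046, 1039.9, 262 and 345 CPM in treated knockouts, without overlap. Its wild-type CPM were 98.4, 84.3, 72.4, 132 and 94.8 and 283, 239.9, 106, 77.1 and 121, with overlap. The knockout response was 2.39 (edgeR FDR = 0.0370), the wild-type one 0.78, the C151S one 0.96 (95% interval 0.10 to 1.83), and the difference between wild-type and knockout -1.61 (edgeR FDR = 0.450).

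Slc41a2, a magnesium transporter, had a knockout response of 1.26 (edgeR FDR = 0.0413) and a wild-type response of -0.05 (-0.53 to 0.42). Veph1 fell by 1.84 on the log2 scale in knockouts (edgeR FDR = 0.0394), beside -0.27 in wild-type and -1.50 in C151S mice. The difference for Veph1 was 1.57 (edgeR FDR = 0.281). Ttr, transthyretin, a hepatocyte marker, had responses of -0.67 in knockouts and -0.37 in wild-type mice.

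Some other genes had no called difference. Lama3, a laminin subunit, had a difference of -0.69 (-1.11 to -0.27, edgeR FDR = 0.233), with an interval that excludes 0 before adjustment. Selenbp2, a selenium-binding protein of male-pattern expression, had a wide interval around -1.28 (-3.26 to 0.70). Ccna2, cyclin A2, had -0.69 (-1.78 to 0.40). Fos and Elovl3, which the study's text names, had -0.65 (edgeR FDR = 0.962) and 0.01 (edgeR FDR = 0.999). Gsta1, an alpha-class transferase, had 3.35 (0.55 to 6.16, edgeR FDR = 0.572).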
